A study of Mus musculus with 6 samples.

Results

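Collagen genes were examined as 1 family across the libraries of mouse intestine. Members were all rows of the deposited table whose symbol has the form Col, a number, the letter a and a number, which gave 44 of 32219 genes, the same 44 that GENCODE vM21 holds. The series has 6 RNA-seq libraries, 3 labelled KO and 3 labelled WT under genotype, all of the source named intestine. The labels list epithelium, immune cells and enteric neurons as the cell types, and the design text names the whole duodenum. The labels give no knocked-out gene, strain, age or sex, and do not say whether each library came from 1 animal, so p-values measure the spread between libraries, which may in part be technical. Values are read as log2(abundance + 1), an assumption explained with the processing. Whether the abundance is per transcript length is not given, so levels of different genes are not ranked against each other.

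Collagens are secreted or membrane-bound proteins in which 3 chains wind into a triple helix. Fibrillar collagens form the fibrils that give the gut wall its tensile strength, and they are made mainly by fibroblasts and smooth muscle. Type IV collagens form the sheet-like network of basement membranes under epithelium and around muscle, vessels and glia. Type VI collagens form beaded filaments between fibrils and basement membranes, and fibril-associated, multiplexin and transmembrane collagens link fibrils, basement membranes and cell surfaces. Chains of 1 molecule are often encoded by neighbouring genes.

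Such a pair is Col4a1 and Col4a2, whose chains join in the main basement membrane collagen. In GENCODE vM21 they lie head to head on chromosome 8, Col4a1 on the minus strand (11198423 to 11312826) and Col4a2 on the plus strand (11312805 to 11449287), with annotated starts 21 bases apart and 22 bases of overlap. Their RefSeq promoter windows, which span each RefSeq start, are printed because the values of the 2 genes moved closely together over the libraries. The Col4a1 window is chr8:11312777-11313076 on the minus strand and the Col4a2 window chr8:11312555-11312854 on the plus strand (GRCm38.p6). Capitals in this pair mark the 78 bases that both windows hold, read on opposite strands. The Col1a2 window (chr6:4505368-4505667, plus strand) is shown for a fibrillar chain. Its capitals mark 2 matches of the CCAAT box (CCAAT or, on the other strand, ATTGG) and 2 of the GC box (GGGCGG).
Col4a1: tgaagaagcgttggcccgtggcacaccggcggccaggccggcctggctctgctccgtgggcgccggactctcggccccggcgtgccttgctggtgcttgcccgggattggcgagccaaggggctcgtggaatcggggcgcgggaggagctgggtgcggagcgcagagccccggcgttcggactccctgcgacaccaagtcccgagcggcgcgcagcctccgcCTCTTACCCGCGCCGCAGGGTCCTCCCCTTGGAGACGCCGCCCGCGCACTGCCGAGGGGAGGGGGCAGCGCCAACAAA
Col4a2: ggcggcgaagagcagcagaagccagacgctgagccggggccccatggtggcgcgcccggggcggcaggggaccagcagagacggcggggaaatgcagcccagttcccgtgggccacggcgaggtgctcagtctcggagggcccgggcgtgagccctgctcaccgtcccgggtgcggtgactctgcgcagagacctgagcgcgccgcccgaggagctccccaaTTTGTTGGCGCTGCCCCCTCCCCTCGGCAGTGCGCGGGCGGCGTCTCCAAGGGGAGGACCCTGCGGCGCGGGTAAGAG
Col1a2: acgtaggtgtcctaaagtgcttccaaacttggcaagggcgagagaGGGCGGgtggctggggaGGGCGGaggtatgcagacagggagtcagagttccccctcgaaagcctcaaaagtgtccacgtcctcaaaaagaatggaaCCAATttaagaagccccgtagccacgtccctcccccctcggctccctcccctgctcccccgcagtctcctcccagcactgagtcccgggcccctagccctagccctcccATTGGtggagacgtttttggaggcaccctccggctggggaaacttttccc
Windows were found for 35 of the 44 genes, 38 windows in all. On both strands, the GC box GGGCGG was in 60.5% of collagen windows and 35.7% of all 32851 windows, and the CCAAT box in 34.2% and 37.4%. The TATA box TATAAA was in 13.2% of collagen windows and 13.6% of all windows. Whether matches of different motifs share letters was not checked, and a match is a description of these letters alone.

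Some libraries stood apart before any comparison. KO 1 was listed at 0 for every gene above 1 on average elsewhere on chromosomes 2 to 9, X and M, and on chromosome 19 past base 10207824, so it has values for 19 of the 44 collagens and the other 25 are missing there. Its covered values were raised, by a median factor of 2.12 over 2160 genes with log2 values of 4 or more and of 1.53 over 2382 genes between 0.5 and 2. Genes that mark position along the gut set it apart as well. Gata4, a factor of the proximal small intestine, was at 5.19 in KO 1 after rescaling by 2.12 and at 0.43 to 0.63 in the other 5 libraries. The ileal gene Fabp6 was at 3.91 in KO 1 and at 8.16 to 8.76 in the other 5, so that those 5 go against the duodenum of the design text on both genes. KO was therefore compared with WT over KO 2, KO 3 and the 3 WT libraries, and KO 1 is described separately. Depth is unknown for all 6 libraries. The epithelial marker Epcam (8.10 to 8.45) and the fibroblast marker Pdgfra (4.59 to 5.16) were both present in all 5 of these libraries, although the labels list no fibroblasts. In such mixed tissue, fewer cells of a type and less RNA per cell cannot be told apart.

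No collagen passed the test between KO and WT. Of the 42 members above 0 in at least 3 of the 5 libraries, 34 had a fold below 0 and 8 a fold above 0, with a median log2 fold of -0.12 against 0.03 over all 22047 genes tested. That is 81.0% of members below 0, where 38.9% of all genes were. Limma with Benjamini-Hochberg adjustment over all genes gave every one of the 42 an adjusted p of 0.99998, and called 1 gene in the whole table, 0.00454%, which is not a collagen. An unadjusted p under 0.05 was reached by 2 members, 4.76% against a background of 2.23%. The libraries did not overlap for 5 members with both KO libraries lowest (11.9%, background 3.77%) and for 3 members with both highest (7.14%, background 9.82%). The balance of signs depended most on WT 2. Without WT 2, 21 members had a fold above 0 and 21 below, where 35.5% of all genes were below, and the median was -0.01 against 0.04 for all genes. Without KO 2 the collagen median was -0.06 against 0.02 for all genes. Without KO 3, WT 1 and WT 3 it was -0.15, -0.16 and -0.15, against 0.03, 0.02 and 0.02 for all genes. In the fit without WT 2, 2 members again had an unadjusted p under 0.05 (background 2.83%). With all 6 libraries and KO 1 as deposited, 34 of 42 were below 0 (background 59.8%) and 0 had an unadjusted p under 0.05 (background 1.09%). With KO 1 rescaled and its gaps left out of the fit, 36 of 42 were below 0 (background 44.7%), 4 had an unadjusted p under 0.05 (background 2.12%) and no collagen was called (background 0.00451%).

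**Figure D1:**
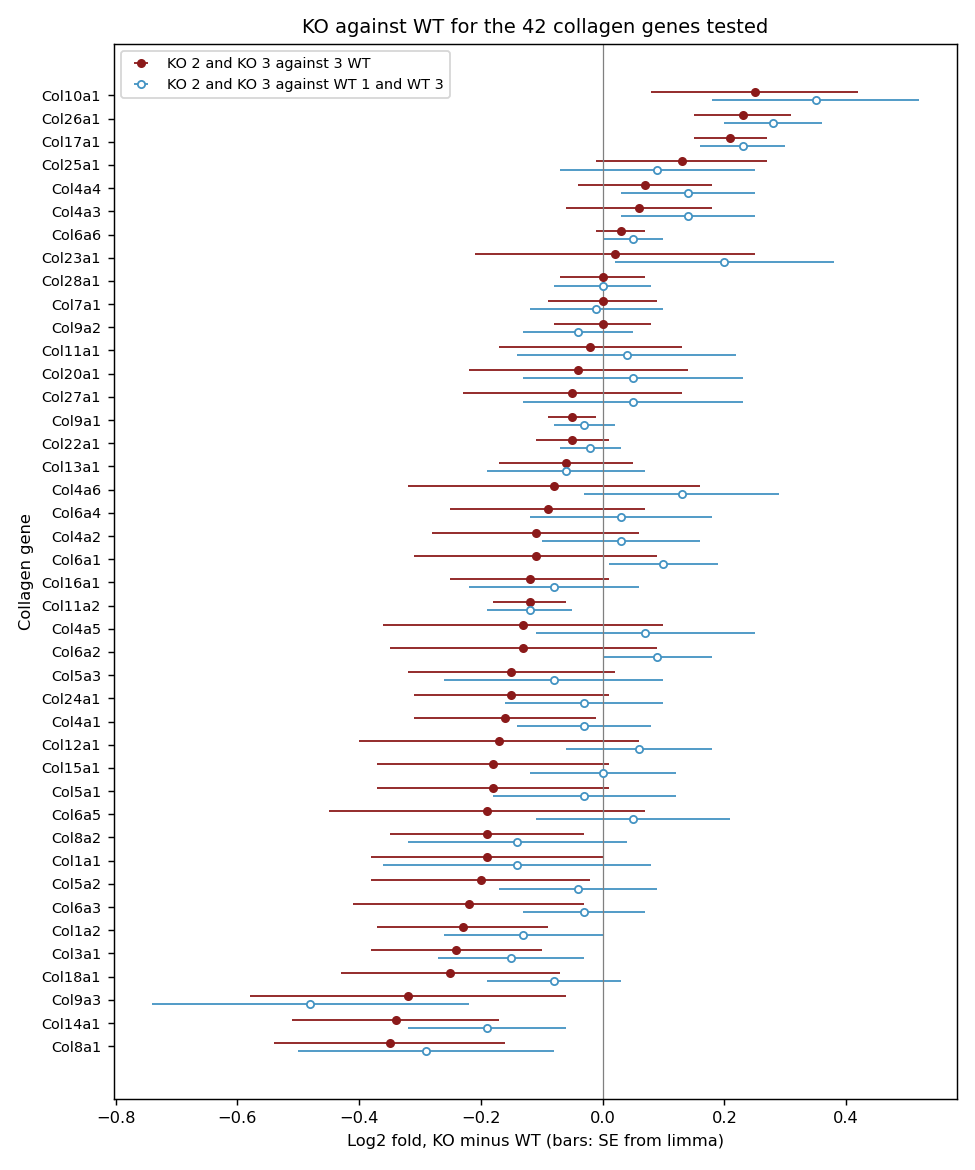
Log2 folds of KO over WT for the 42 collagen genes tested, with standard errors from limma. Filled red points use all 3 WT libraries and open blue points use WT 1 and WT 3 alone. Filled points lie mostly left of 0, with a median of -0.12, while open points lie to both sides, with a median of -0.01.

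The fibrillar chains included Col1a1 and Col1a2, which together make type I collagen, the main collagen of fibrils. Col1a1 (chromosome 11, 94936224 to 94953042) was at 7.10 and 7.63 in KO 2 and KO 3, against 7.38, 7.65 and 7.64 in WT 1, WT 2 and WT 3. KO 2 was the lowest library, and KO 3 was level with the higher WT libraries. The log2 fold was -0.19 ± 0.19 (SE), and it was 0.079 without KO 2. Col1a2 was at 6.53 and 6.75 in KO, against 6.69, 7.08 and 6.86 in WT, so that the groups overlapped (fold -0.23 ± 0.14). Col3a1, whose product shares fibrils with type I in tissues that stretch, was at 7.09 and 7.22 in KO, against 7.24, 7.59 and 7.37 in WT. Both KO libraries were below every WT library, KO 3 only just below WT 1, and the fold was -0.24 ± 0.14 (limma adjusted p = 0.99998).

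Type V chains, which start fibrils and limit their width, followed. Col5a1 was at 4.63 and 4.86 in KO, against 4.63, 5.24 and 4.91 in WT. Col5a2, next to Col3a1 on chromosome 1 and on the opposite strand, was at 4.49 and 4.46 in KO, against 4.36, 5.0 and 4.66 in WT. Col5a3 was at 2.14 and 2.42 in KO, against 2.28, 2.58 and 2.44 in WT. For each of the 3, WT 2 was the highest library and at least 1 KO library lay between WT 1 and WT 3. Their folds of -0.18, -0.20 and -0.15 became -0.03, -0.04 and -0.08 without WT 2. In all, 10 of 10 fibrillar genes tested had a fold below 0 (median -0.17), 8 of 10 without WT 2 (median -0.06), and none passed. Col27a1 and Col24a1, fibrillar chains whose triple helix has short interruptions, had folds of -0.05 and -0.15. Col11a1 and Col11a2, chains known from cartilage, were under 1 in every library; Col11a2 was at 0.22 and 0.19 in KO and 0.38, 0.33 and 0.28 in WT (fold -0.12 ± 0.06, unadjusted p = 0.0736).

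WT 2 was the highest library for 5 of the 6 basement membrane chains, the exception being Col4a4, where KO 3 was highest. Col4a1 was at 6.06 and 6.16 in KO, against 6.06, 6.55 and 6.23 in WT. Col4a2 was at 5.29 and 5.52 in KO, against 5.26, 5.81 and 5.48 in WT. In both genes WT 2 stood 0.42 above the mean of the other 4 libraries, and those 4 spanned 6.06 to 6.23 for Col4a1 and 5.26 to 5.52 for Col4a2. The folds were -0.16 ± 0.15 and -0.11 ± 0.17, and without WT 2 they were -0.03 and 0.033. Col4a5 and Col4a6, head to head on the X chromosome with 1309 bases between annotated starts, encode chains that pair in the basement membrane of smooth muscle. Col4a5 was at 2.66 and 2.31 in KO, against 2.39, 2.99 and 2.45 in WT. Col4a6 was at 1.49 and 1.36 in KO, against 1.33, 1.94 and 1.25 in WT. Again WT 2 was highest, and the folds of -0.13 and -0.08 became 0.066 and 0.13 without it. Col4a3 and Col4a4, chains of the kidney filtration membrane that lie head to head on chromosome 1, were under 1 in all 5 libraries. Col4a3 was at 0.70 and 0.68 in KO, against 0.65, 0.79 and 0.45 in WT. Col4a4 was at 0.48 and 0.70 in KO, against 0.49, 0.66 and 0.41 in WT. The groups overlapped in both, with folds of 0.06 and 0.07. Of the 6 genes, 4 had a fold below 0 and 1 did without WT 2.

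In the type VI chains WT 2 exceeded the mean of the other 4 libraries by 0.03 to 0.68, with a median of 0.57. Col6a1 was at 5.91 in KO 2 and 5.91 in KO 3, against 5.79, 6.43 and 5.83 in WT. Its neighbour Col6a2 was at 5.77 and 5.81 in KO, against 5.69, 6.37 and 5.71 in WT. Col6a3, the chain that completes the common type VI molecule, was at 5.52 and 5.50 in KO, against 5.46, 6.11 and 5.63 in WT. In these 3 genes both KO libraries were above WT 1 and well below WT 2, and for Col6a1 and Col6a2 they were above WT 3 as well. The folds of -0.11 ± 0.20, -0.13 ± 0.22 and -0.22 ± 0.19 became 0.095, 0.091 and -0.03 without WT 2. The genes for chains that can take the place of Col6a3 lie side by side on chromosome 9. Col6a4 was at 4.05 and 4.15 in KO, against 4.23, 4.43 and 3.90 in WT, and Col6a5 at 1.58 and 1.43 in KO, against 1.47, 2.16 and 1.44 in WT. Col6a6 was near the floor, at 0.14 and 0.15 in KO and 0.08 to 0.15 in WT. WT 2 was the highest library for 6 of these 6 genes, and none passed the test.

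Multiplexins and fibril-associated collagens were next. Col15a1, found between basement membrane and fibrils, was at 3.85 and 4.07 in KO, against 3.99, 4.51 and 3.93 in WT. Col18a1, the source of the fragment endostatin, was at 3.45 and 3.54 in KO, against 3.53, 4.10 and 3.62 in WT. WT 2 was highest in both, and in both the KO libraries overlapped the 2 lower WT libraries. The folds were -0.18 ± 0.19 and -0.25 ± 0.18, and 0.0011 and -0.08 without WT 2. Col14a1, which coats fibrils, was at 3.51 and 3.33 in KO, against 3.52, 4.05 and 3.69 in WT, and both KO libraries were below every WT library (fold -0.34 ± 0.17, unadjusted p = 0.0984). Col12a1, a related fibril-coating chain, was at 4.15 and 3.97 in KO, against 3.95, 4.67 and 4.05 in WT, so that only WT 2 was above KO 2. All 8 fibril-associated genes tested had a fold below 0, 6 without WT 2. Among the low ones, Col9a3 was at 0.17 and listed at 0 in KO, against 0.95, 0.09 and 0.17 in WT, and its fold of -0.32 was -0.048 without WT 1. Col9a3 shares exon bases with Tcfl5 on the opposite strand. Col9a1 was at 0.05 and 0.07 in KO, against 0.07, 0.15 and 0.11 in WT.

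The members with both KO libraries above every WT library were Col17a1, Col26a1 and Col10a1, and they had the largest folds above 0. Col17a1 (chromosome 19, 47646344 to 47692094), a transmembrane collagen of hemidesmosomes, was at 0.50 and 0.54 in KO, against 0.33, 0.34 and 0.26 in WT. Its fold of 0.21 ± 0.06 had the smallest unadjusted p of the family, 0.0140, and a limma adjusted p of 0.99998. Col26a1 was at 0.61 and 0.64 in KO, against 0.33, 0.51 and 0.35 in WT (fold 0.23 ± 0.08, unadjusted p = 0.0342, limma adjusted p = 0.99998). Both genes are low, where the added constant compresses a fold. Col10a1, known from cartilage that turns to bone, was at 1.74 and 1.80 in KO, against 1.34, 1.71 and 1.49 in WT (fold 0.25 ± 0.17). Col10a1 shares exon bases with Nt5dc1 on the opposite strand, and whether reads were counted by strand is not stated. Without WT 2 the 3 folds were 0.23, 0.28 and 0.35, all with a limma adjusted p of 0.9994. The other transmembrane genes gave folds of 0.13 for Col25a1, 0.02 for Col23a1 and -0.06 for Col13a1, a collagen of the neuromuscular junction.

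Type VIII chains are short-chain collagens of vessels and the cornea, and neither passed the test. Col8a1 was at 1.90 and 1.62 in KO, against 1.88, 2.22 and 2.21 in WT, the lowest fold of the family at -0.35 ± 0.19. Col8a2 was at 1.5 and 1.65 in KO, against 1.61, 1.87 and 1.82 in WT (fold -0.19 ± 0.16). KO 2 was level with WT 1 in Col8a1 and KO 3 with WT 1 in Col8a2, so the groups overlapped in both. Both folds stayed below 0 without WT 2, at -0.29 and -0.14. Col7a1, the anchoring fibril collagen, was under 0.5 in every library and Col28a1, a collagen of basement membranes around Schwann cells, was at 0.56 and 0.52 in KO and 0.50 to 0.57 in WT. Col2a1, the collagen of cartilage, and Col19a1 were at or under 0.07 in every library and were not tested.

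Most members shared the same highest library. Of the 28 members with a mean of at least 1, WT 2 was the highest library for 26, the exceptions being Col13a1 and Col10a1. No member of the 42 tested had KO 2 highest, where 22.7% of all genes did. Over all 42, WT 2 was highest for 30 (71.4%), against 21.8% of all genes. WT 2 exceeded the mean of the other 4 libraries by a median of 0.42 in the 28 and of 0.03 in the 14 genes with a mean under 1. KO 2 was the lowest library for 13 of the 28 (46.4%), against 11.1% of all genes with a mean of at least 1. WT 1 was lowest for 8 (28.6%), near its share of 26.2% of those genes. The median deviation from the mean of the 5 libraries over the 42 was -0.10 in KO 2, -0.02 in KO 3, -0.08 in WT 1, 0.22 in WT 2 and -0.03 in WT 3. Over all genes these medians lay between -0.03 and 0.02.

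**Figure D2:**
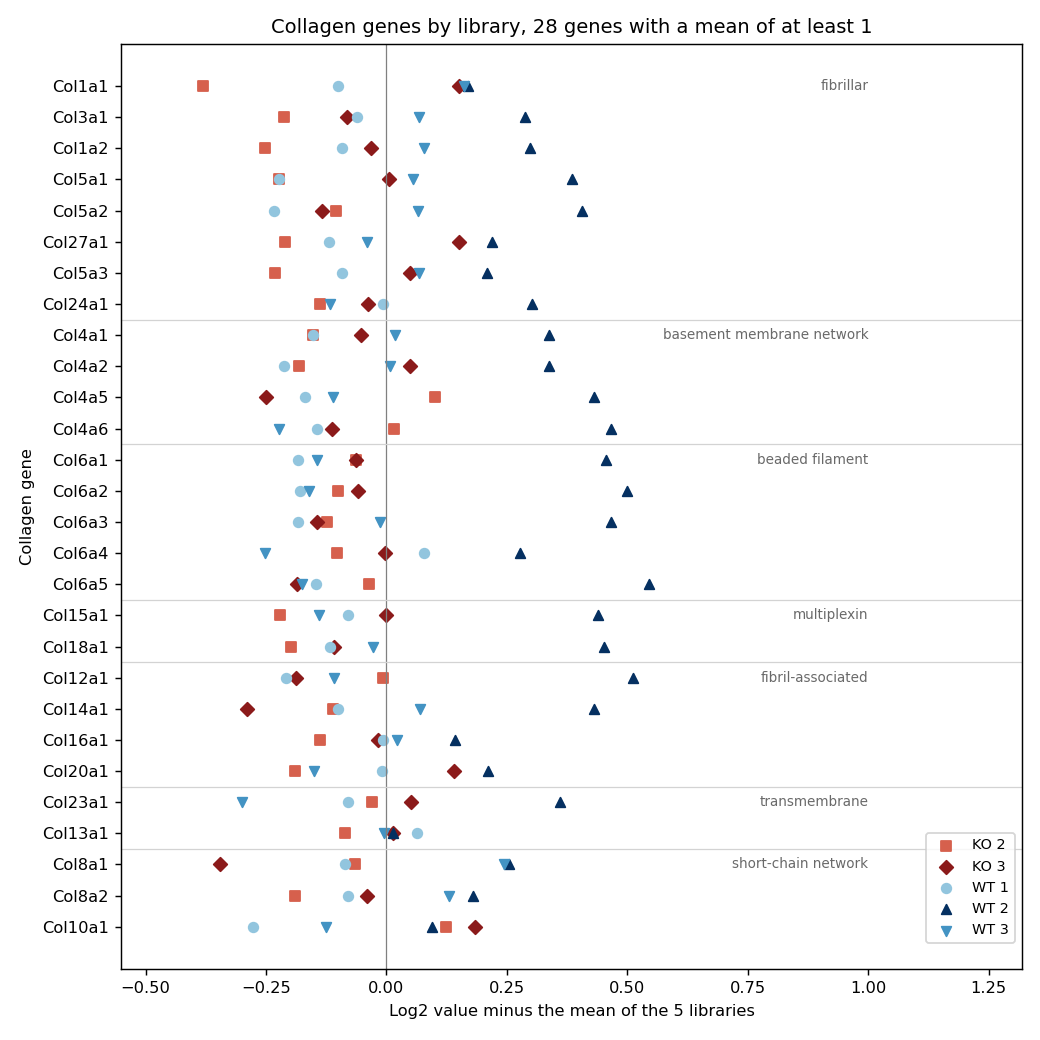
Deviation of each library from the mean of the 5 libraries, on the log2 scale, for the 28 collagen genes with a mean of at least 1, grouped by family. WT 2 (dark triangles) is the rightmost library for 26 genes, while the leftmost library varies, being KO 2 for 13 genes, KO 3 for 4, WT 1 for 8 and WT 3 for 3.

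Summed fibroblast, endothelial and glial markers were, like the summed collagens, highest in WT 2, and the other sums were not. Gene by gene, WT 2 was highest for 8 of 9 fibroblast and 5 of 7 endothelial markers. It was also highest for 5 of 9 smooth muscle, 3 of 6 glial and 1 of 6 immune markers. That was so for none of the epithelial, enteric neuron, adipocyte and mesothelium markers, and for 21.8% of all genes. The part of any marker list in the collagen values was not tested. The 9 fibroblast markers summed to 245.2 and 214.9 on the linear scale in KO 2 and KO 3, and to 237.4, 351.4 and 246.2 in WT, with none at 0. WT 2 was thus highest, as for the summed collagens, at 773.6 and 884.5 in KO and 818.3, 1127 and 911.3 in WT. When summed, the 9 smooth muscle markers ordered the libraries otherwise, with 1179 and 1585 in KO and 1137, 1522 and 1457 in WT. Endothelial markers (7 genes) summed to 59.98 and 56.07 in KO and to 63.21, 76.27 and 48.39 in WT, and glial markers (6 genes) to 5.481 and 6.715 in KO and 6.373, 8.599 and 6.805 in WT. Epithelial markers (6 genes) were lowest in WT 2, with 1131 and 1278 in KO and 1307, 1037 and 1285 in WT. Immune markers (6 genes) were high in both libraries numbered 2, at 90.86 in KO 2 and 65.97 in WT 2, and at 25.7 in KO 3, 29.11 in WT 1 and 21.67 in WT 3. Enteric neuron markers (7 genes) gave 22.04 and 34.68 in KO and 23.29 to 28.04 in WT, and adipocyte and mesothelium markers (5 genes) 6.318 and 14.67 in KO and 2.467 to 14.45 in WT.

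**Figure D3:**
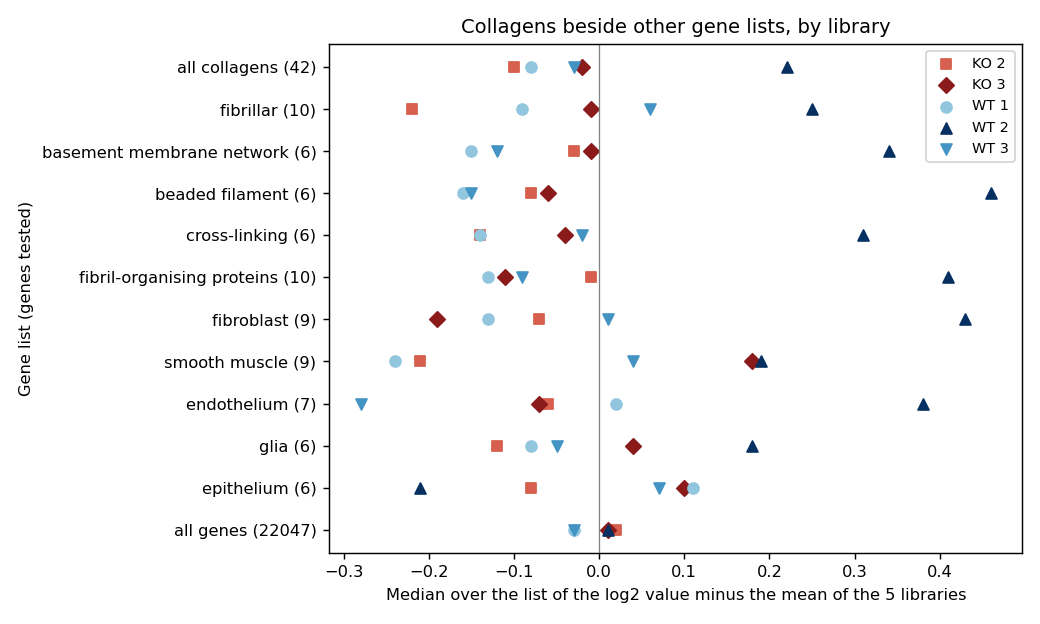
Median deviation of each library from the mean of the 5 libraries (log2 scale) for some of the collagen families, related matrix lists and cell type markers, and for all genes. The number of genes tested is in brackets. Lists not plotted include immune markers (WT 2 at 0.55, KO 2 at 1.07) and transmembrane collagens (WT 2 at -0.02). WT 2 lies at 0.46 for beaded filament collagens and 0.43 for fibroblast markers and at -0.21 for epithelial markers, while all genes lie near 0.

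Ratios between chains within a library remove what chains share, and transcript length cancels when 1 ratio is followed over libraries. The log2 ratio of Col6a1 to Col6a2 was 0.14 and 0.10 in KO, against 0.11, 0.06 and 0.13 in WT, a range of 0.08 over the 5 libraries. That of Col4a1 to Col4a2 was 0.79 and 0.66 in KO, against 0.81, 0.75 and 0.76 in WT, a range of 0.16. These 2 pairs had the narrowest ranges of the 10 ratios computed. The ratio of Col1a1 to Col1a2 was looser, at 0.57 and 0.89 in KO, against 0.69, 0.58 and 0.79 in WT. The widest was Col1a1 to Col6a1, at 1.20 and 1.74 in KO, against 1.60, 1.23 and 1.82 in WT. In that ratio and in Col1a1 to Col1a2, KO 2 and WT 2 were the 2 lowest libraries and KO 3 and WT 3 the 2 highest, so that the groups overlapped. Over the 5 libraries, as a description, Pearson correlation was 0.97 for Col4a1 with Col4a2, 0.93 for Col4a5 with Col4a6 and 0.70 for Col4a3 with Col4a4. These pairs lie head to head. Tested neighbours that do not gave 1.0 for Col6a2 with Col6a1 and 0.9 for Col3a1 with Col5a2. Col6a5 with Col6a4 gave 0.76 and Col6a6 with Col6a5 gave 0.47. The median over the 378 pairs of the 28 members was 0.75, and these points share libraries and the height of WT 2.

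**Figure D4:**
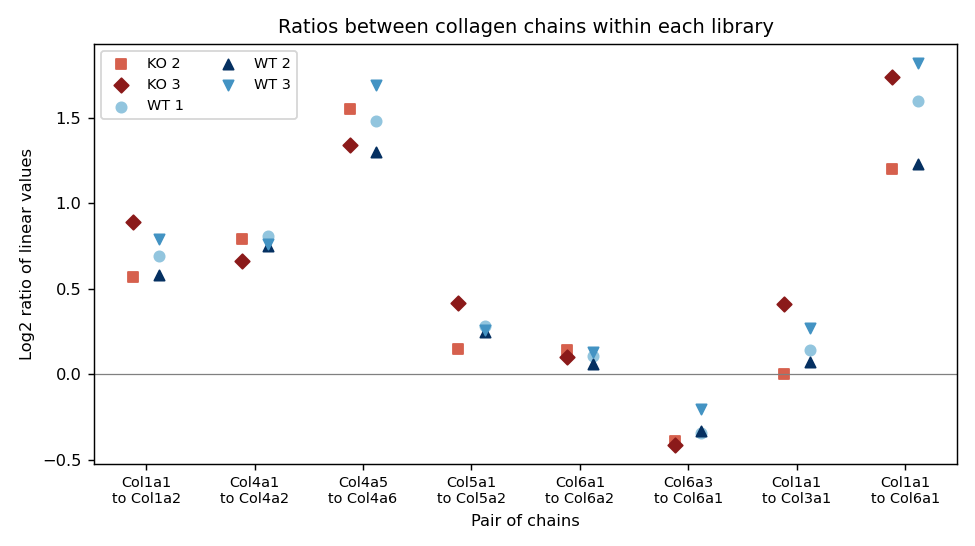
Log2 ratios of linear values between pairs of collagen chains in each library, KO left and WT right of each position. Points for Col6a1 to Col6a2 span 0.08 and those for Col4a1 to Col4a2 span 0.16, while those for Col1a1 to Col6a1 span 0.62.

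Where it has values, KO 1 was the lowest library of the series for most collagens. Of its 19 covered members, 17 were among those tested. After rescaling by 2.12 all 17 were below the WT mean, where 6334 of 9946 covered genes were. The median difference was -0.64 for the 17 against -0.07 over the covered genes. For 13 of the 17, KO 1 was below all of the other 5 libraries, where 39.7% of covered genes were. With the factor of 1.53 taken from low genes the count was 10, where 21.4% of covered genes were. That factor put Col10a1 (1.75), Col13a1 (1.24), Col4a3 (0.79) and Col22a1 (0.26) above their WT means of 1.52, 1.06, 0.63 and 0.23. The position of these low genes against WT thus depended on the factor. Without any rescaling, so with KO 1 still raised, the count below the other 5 libraries was 6, where 12.6% of covered genes were. Col1a1 was at 5.50 in KO 1, Col3a1 at 6.01 and Col5a2 at 2.99, with differences from the WT mean of -2.06, -1.39 and -1.68. All 3 were below the other libraries even as deposited, Col3a1 only just, at 7.08 in KO 1 against 7.09 in KO 2. Col6a1, Col6a2 and Col6a3 were at 4.8, 4.88 and 4.40 in KO 1, with differences from the WT mean of -1.21, -1.04 and -1.33. Col14a1 was at 2.70, Col18a1 at 3.11 and Col8a1 at 0.76, while Col10a1 (1.44), Col13a1 (0.99), Col4a3 (0.61) and Col22a1 (0.19) were not below the other libraries. The log2 ratio of Col6a3 to Col6a1 was -0.42 in KO 1 and -0.41 to -0.20 in the other 5 libraries. That of Col1a1 to Col3a1 was -0.52 in KO 1 and 0.00 to 0.41 in the other 5.

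**Figure D5:**
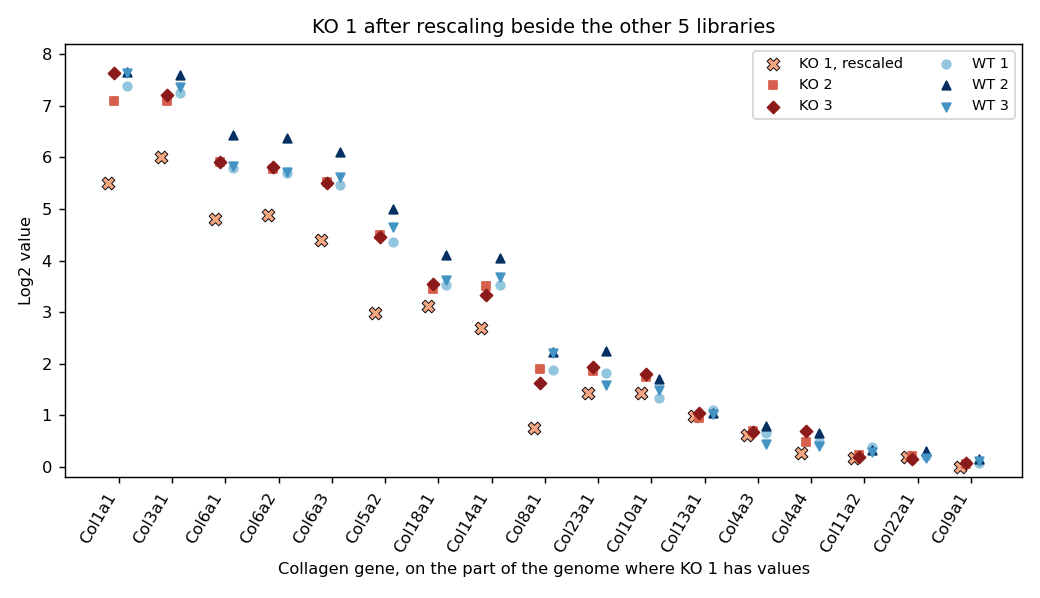
Log2 values of the 17 tested collagen genes that lie where KO 1 has values, with KO 1 rescaled by 2.12 (crosses) beside KO 2, KO 3 and the WT libraries. The cross for Col1a1 is at 5.50 and all other libraries lie between 7.10 and 7.65, and towards the low genes on the right the crosses come close to the other points.

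The same library was low in markers of the gut wall, and their part in its collagen values was not tested. The covered smooth muscle markers (4 of 9: Myh11, Des, Lmod1 and Smtn) summed to 24.46 in KO 1 after rescaling and to 331.6 to 452.9 in the other 5 libraries. The covered fibroblast markers (6 of 9) summed to 93.82 in KO 1 and 178.8 to 299.9 elsewhere, with Fbln1 at 5.44 in KO 1 against 4.53 to 5.18. Covered epithelial markers (4 of 6) summed to 1345 in KO 1 and 854.0 to 1088 elsewhere. KO 1 is 1 library, and its genes that mark gut position differ from the other 5 as well. Gut position, the low wall markers and genotype therefore cannot be told apart in its collagen values.

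Genes that make, export, link and bind collagen were described from lists chosen with earlier results of these data known. Of 20 folding and modification genes, 6 had a fold above 0 and 14 below (median -0.07), and none passed. P4ha2, a subunit of the enzyme that hydroxylates proline in collagen, was at 1.39 and 1.90 in KO, against 2.08, 2.02 and 2.06 in WT (fold -0.41 ± 0.19, unadjusted p = 0.0808). Both KO libraries were below every WT library, KO 2 by the wider margin. Serpinh1, the collagen chaperone, had a fold of -0.23 and Creb3l1, a transcription factor of the secretory pathway, one of 0.18. Of 13 export and processing genes, 6 were above 0 and 7 below (median -0.04), with Pcolce, an enhancer of procollagen cleavage, at -0.23, Pcolce2 at -0.12 and Mia2, an export factor, at 0.16. All 6 cross-linking genes had a fold below 0 (median -0.17), 5 of 6 without WT 2 (median -0.04). Among them the lysyl oxidase genes Lox, Loxl2 and Loxl4 had folds of -0.21, -0.20 and -0.19.

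Of 10 fibril-organising genes, 8 had a fold below 0, 3 without WT 2. Ogn and Tnxb, both fibril-binding proteins, had folds of -0.27 and -0.18, and Fmod, a related proteoglycan, one of 0.21. Of 9 collagen receptor genes tested, 7 had a fold below 0 with and without WT 2 (median -0.06 and -0.04). Ddr2, a receptor kinase for fibrillar collagen, was at 3.85 and 4.09 in KO, against 4.10, 4.40 and 4.02 in WT (fold -0.21). Mrc2, which takes up collagen for breakdown, had a fold of -0.25, and Itga10, an integrin subunit, one of -0.17. Adjusted over all genes, limma called none in the 5 lists, and every tested gene in them had an adjusted p of 0.99998.

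For 3 chains, the genes with the most similar pattern over the 5 libraries were listed among 8012 genes with a mean of at least 3. For Col3a1 these were Pmepa1, Ccdc80, Hoxc6, Drap1 and Casq2, with Pearson r between 0.9919 and 0.9978, and Col1a2 was in place 9. For Col4a1 they were Ppfibp1, Ecm1, Ehd2, Cap2 and Aff4 (0.9888 to 0.9965), and the nearest collagen was Col5a1 in place 17. For Col1a1 they were Nelfb, Ehd4, Eln, Yif1b and Jph2 (0.9823 to 0.9963), and its partner chain Col1a2 was in place 137 with r = 0.8352. Eln encodes elastin, the other main fibre of stretchable tissue. With 5 points these are descriptions of the libraries.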

How the data were processed

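The authors deposited 1 table of log values, read here as log2(abundance + 1); base and constant are assumed, no source used here states the unit, and natural logs would enlarge every fold by one constant. The build is mm10, per the submitters' processing notes; aligner and counter: not given in the sources used here. Of 32245 rows, 26 held a date in place of a symbol and were left out, and GENCODE vM21 placed 31398 of 32219 genes. Per the labels, polyadenylated RNA was selected and a stranded kit was used. Depth is unknown.

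The main comparison set KO 2 and KO 3 against WT 1 to WT 3. It used limma 3.58.1 (R 4.3.3), 2-sided, fitting a trend of variance on level, for genes that 3 or more of the 5 libraries listed above 0, with Benjamini-Hochberg adjustment over 22047 genes and a threshold of 0.05. The fit was tested on simulated data with planted changes larger than any collagen fold of the main comparison, in genes at or above the median level. That test does not show how well smaller folds or low genes are detected. Covered linear values of KO 1 were divided by 2.12. Values per library are given for types I, III, IV, V, VI, XV and XVIII and the 12 members with the smallest p. They are also given for some others chosen after their values were seen. Of each pathway list, the 3 genes with the smallest p are named with their folds, and P4ha2 and Ddr2 also with values per library. The members and lists were chosen with earlier results of these data known. Alternatives were left-out libraries, other filters, constants, scalings, variance models, the replicate block and KO 1 included.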

Additional observations from a re-analysis of the deposited data

How the results depend on the processing

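No collagen passed under any of the 17 alternatives, each run with limma over all genes. Natural logs, 1 of the 17, enlarge every fold by one constant, so that alternative could not change a p-value. The number of genes called in the whole table, 1 as reported, was 0 with all 6 libraries and KO 1 as deposited, with the replicate block, with no filter, with a mean of at least 1 required, with an added constant of 0.1, and with any 1 library left out (0 to 0), and the cause was not tested. The collagen median of -0.12 ranged from -0.16 to -0.01 over left-out libraries, with -0.01 without WT 2 and -0.06 without KO 2, and was -0.26 with KO 1 as deposited. The fold of Col6a6 turned to -0.018 with KO 1 as deposited and to -0.028 with median centring, which moves the median of all genes to -0.03, and that of Col4a4 to -0.039 with KO 1 rescaled. Folds that crossed 0 over left-out libraries, with their ranges, were those of Col15a1 (-0.29 to 0.0011), Col1a1 (-0.46 to 0.079), Col4a2 (-0.24 to 0.033), Col4a3 (-0.026 to 0.14), Col4a4 (-0.042 to 0.18), Col4a5 (-0.30 to 0.066), Col4a6 (-0.21 to 0.13), Col6a1 (-0.23 to 0.095), Col6a2 (-0.25 to 0.091), Col6a4 (-0.23 to 0.034) and Col6a5 (-0.31 to 0.048). Removing WT 2 turned 8 of the 29 named genes, removing KO 2, KO 3 and WT 3 turned 2, 2 and 1, and removing WT 1 turned none. Where KO 2 or KO 3 was left out, the lone KO library was assumed to vary like WT. Without rescaling, which was added after the data were seen, KO 1 was below the other libraries in 6 of 17 covered collagens, against 13. With the replicate number as a block, the collagen median was -0.16, against 0.02 for all genes. In that fit 4 collagens had an unadjusted p under 0.05 against 2. The share of all genes under 0.05 in that fit is not given here, so the rise is not read as particular to collagens. Deviations of same-numbered libraries correlated at 0.28 for number 2 and 0.33 for number 3, but with KO 1 set aside these are 2 pairs whose KO deviations mirror each other, so the numbers are not taken to pair the libraries. The fit has 2 KO and 3 WT libraries of unknown depth, which limits its precision.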
